A study of Bos taurus with 22 samples.

Results

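Transcripts of 7 genes of fatty acid oxidation and its control were examined in jejunal mucosa, out of 27570 genes in the count table. They are PPARGC1A, PPARA, CPT1A, CPT2, HADHA, ACADVL and PDK4, chosen by symbol, and all 7 were present and passed the filter on low counts in every comparison. The mucosa came from 22 Holstein steers of 10 to 12 months of age that were held in stalls for 7 d. Every steer received raw corn starch into the abomasum at 3.94 g/kg body weight per day. Control steers (n = 5) received water in place of casein and injections of the vehicle, bovine serum albumin (BSA). GLP-2 steers (n = 5) received water and GLP-2, a gut hormone given under the skin, at 100 µg/kg per day in injections 12 h apart. Casein steers (n = 6) received casein, the main milk protein, as its sodium salt with the starch at 1.3 g/kg per day and BSA injections. Casein + GLP-2 steers (n = 6) received casein and GLP-2 at the same doses. Each sample was a scraping of the mid-jejunal mucosa of a different animal, which holds epithelium together with lymphoid, stromal and muscle cells. Fewer cells of a type and less RNA per cell cannot be told apart in such bulk RNA. A GLP-2 steer of block 2 was not analysed here, and, per the study's methods, a control steer was not sequenced because of low RNA integrity.

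PPARGC1A encodes PGC-1alpha, a coactivator without DNA-binding activity of its own that docks on nuclear receptors and raises transcription of genes for mitochondria and fuel oxidation. PPARA encodes PPARalpha, a fatty acid-sensing nuclear receptor that partners with PGC-1alpha and drives many genes of fatty acid oxidation. Long-chain fatty acids enter mitochondria as acylcarnitines, made by CPT1A on the outer membrane and turned back to acyl-CoA by CPT2 on the inner membrane. ACADVL starts beta-oxidation of the longest chains there, and HADHA, the alpha subunit of the trifunctional protein, carries out the next steps. PDK4 phosphorylates and inactivates pyruvate dehydrogenase, which spares glucose carbon while fat is burned. In the small intestine, the absorptive enterocytes of the villus take up dietary fat and hold the enzymes to re-esterify or oxidize it.

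On ARS-UCD1.2, the build behind the deposited tables, the genes lie on 7 different chromosomes. PPARGC1A (ENSBTAG00000017024) spans chr6:43380463-43501184 on the minus strand, and PPARA (ENSBTAG00000008063) spans chr5:116438987-116507065 on the plus strand. CPT1A (ENSBTAG00000021999) is at chr29:46164784-46225440 on the minus strand and CPT2 (ENSBTAG00000014649) at chr3:93032987-93057118 on the minus strand. HADHA (ENSBTAG00000015038) is at chr11:73256623-73298910 on the plus strand and ACADVL (ENSBTAG00000003072) at chr19:26934465-26940043 on the plus strand. PDK4 (ENSBTAG00000014069) is at chr4:12881889-12895362 on the minus strand. All 7 are annotated as protein coding, and values cover the exons of each gene. Library totals ranged from 8809666 to 28447810 counts. The least counted of the 7, PPARGC1A, had between 78 and 422 counts in a steer, and ACADVL, the most counted, had between 2126 and 15161.

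Levels of different genes can be compared only per length, for which the deposited FPKM values (fragment counts scaled by transcript length and library size) were used. PPARGC1A was the lowest of the 7, with a mean of 1.72 ± 0.725 FPKM (SD, n = 22). The enzymes stood far above it, at 152 ± 64.6 FPKM for ACADVL, 107 ± 46.4 for HADHA, 63.2 ± 31.5 for CPT2 and 15.4 ± 4.39 for CPT1A. PPARA averaged 13.2 ± 6.91 FPKM and PDK4 8.68 ± 3.94. Within a steer, ACADVL was above HADHA, HADHA above CPT2, CPT2 above CPT1A and PDK4 above PPARGC1A in 22 of 22 steers. CPT1A was above PPARA in 16 of 22 and PPARA above PDK4 in 14 of 22, so the order of these 3 was not the same in all steers.

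Within their families the 7 genes were not always the main form. PPARGC1B, the closest relative of PPARGC1A, averaged 5.37 ± 2.69 FPKM, and PPRC1, the third coactivator of the family, averaged 3.95 ± 1.51. PPARD, the receptor PPARdelta, averaged 12.7 ± 2.92 FPKM, close to PPARA, whereas PPARG averaged 3.95 ± 2.38. Among the isoenzymes that load carnitine, CPT1A stood above CPT1B (0.780 ± 0.367 FPKM) and CPT1C (1.11 ± 0.815), and its lowest steer, at 7.03 FPKM, was above their highest steers, at 1.32 and 3.18 FPKM. ACADVL averaged more than ACADS (108 ± 30.2 FPKM), ACADM (46.4 ± 16.4) and ACADL (3.82 ± 1.66), the dehydrogenases of shorter chains. HADHB, the beta subunit that pairs with HADHA, averaged 66.7 ± 24.6 FPKM, and the ratio of HADHA to HADHB within a steer ran from 0.904 to 2.08 with a median of 1.64. PDK4 was below PDK3 (18.3 ± 3.26 FPKM) and PDK2 (12.3 ± 4.84) and above PDK1 (4.66 ± 1.23), which hold the same role as kinases of pyruvate dehydrogenase.

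The first question was whether exogenous GLP-2 administration, with or without casein, changed these transcripts. In library-size normalized counts (CPM), PPARGC1A stood at 4.61, 6.88, 7.92, 8.30 and 9.18 in the control steers and at 11.5, 12.5, 16.9, 17.5 and 19.0 in the GLP-2 steers. In the casein steers it ran from 5.03 through a median of 9.29 to 10.3 CPM. In the casein + GLP-2 steers it ran from 9.97 through a median of 12.9 to 21.6 CPM. All 5 GLP-2 steers were above all 5 control steers, and 10 of the 11 steers given GLP-2 were above the highest of the 11 steers given BSA. The exception was the casein + GLP-2 steer of block 6, the lowest of its treatment. How many of all genes separate the groups in this way was not computed. PPARGC1A was higher with GLP-2 than with BSA by 0.94 ± 0.181 on the log2 scale (SE, 95% confidence interval 0.57 to 1.32), a fold of 1.92. The adjusted p was 0.0186 (edgeR, quasi-likelihood F-test, Benjamini-Hochberg over all genes). The gene ranked 16 of 13928 genes by p, among 1881 past the threshold of 0.05 (13.5%), of which 715 were higher (5.13%).

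**Figure D1:**
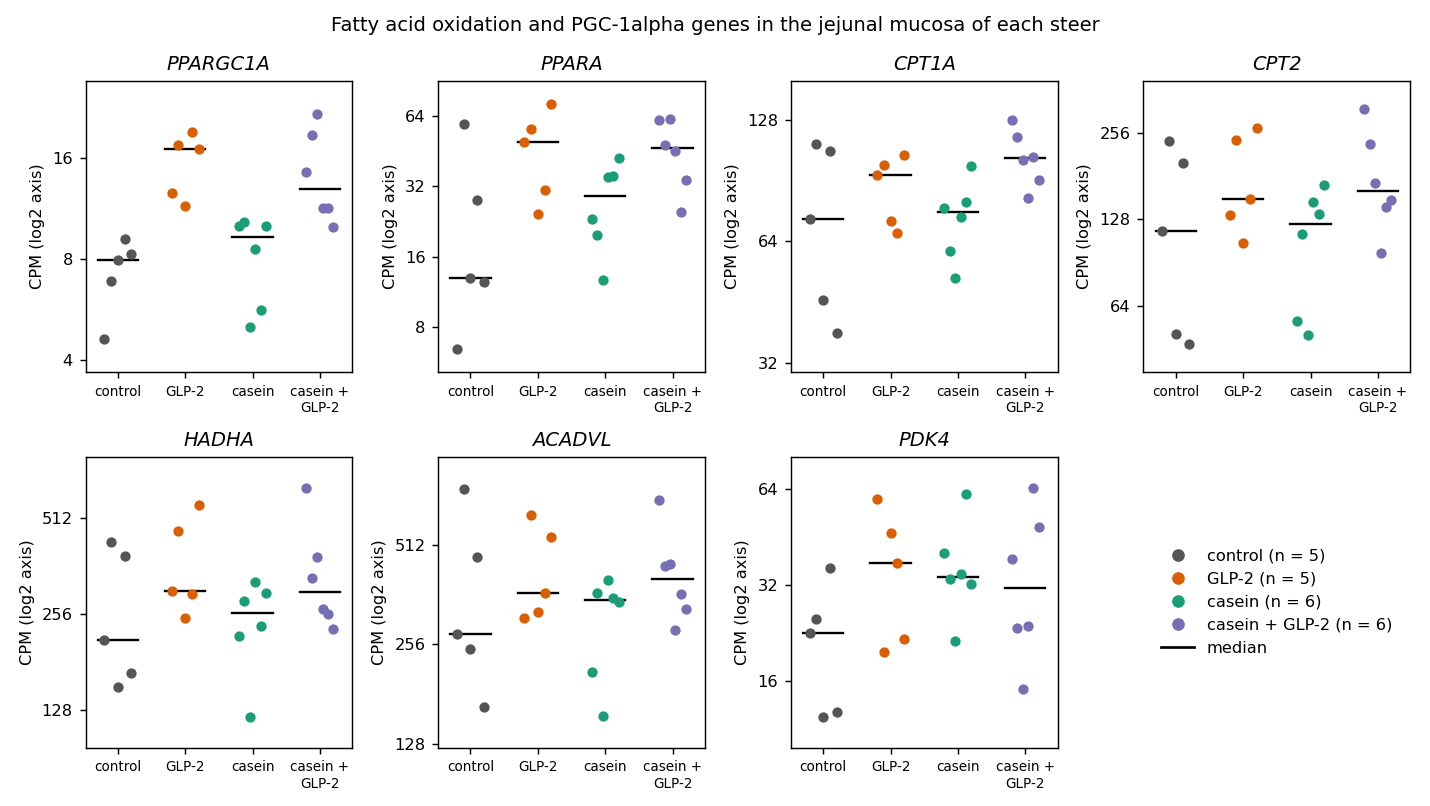
CPM of each gene (log2 axis) in every steer of the 4 treatments, with a line at each treatment's median. PPARGC1A in the GLP-2 steers, at 11.5 to 19.0 CPM, sits above all control steers, at 4.61 to 9.18 CPM, while the points of the other genes overlap between treatments. The share of all genes that separate so was not computed.

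PPARA, the partner receptor, tended to be higher with GLP-2. Its levels were 6.41, 12.5, 13.0, 27.9 and 59.0 CPM in the control steers and 24.3, 30.8, 49.6, 56.5 and 72.2 CPM in the GLP-2 steers. It ran from 12.7 through 29.2 to 42.4 CPM in the casein steers and from 24.8 through 46.8 to 62.2 CPM in the casein + GLP-2 steers. The control group spanned the widest range, and its highest steer, from block 2, lay among the highest GLP-2 steers. The difference between GLP-2 and BSA was 0.85 ± 0.300 on the log2 scale (95% confidence interval 0.23 to 1.46). Its adjusted p = 0.0581 by edgeR missed the threshold and counted as a tendency, and 3633 genes (26.1%) had an adjusted p up to 0.1. DESeq2's Wald test gave PPARA an adjusted p = 0.0327, where it called 2999 of 13928 genes. With limma on log2(FPKM + 1) it was 0.0391, and with the body weight block in edgeR it was 0.0719.

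The genes of the carnitine step had higher means with GLP-2 without passing the test. CPT1A stood at 37.9, 45.7, 72.9, 107 and 112 CPM in the control steers and at 67.2, 71.9, 93.3, 98.7 and 105 CPM in the GLP-2 steers. It ran from 51.9 through 75.5 to 98.5 CPM in the casein steers and from 81.8 through 103 to 128 CPM in the casein + GLP-2 steers. The lowest and the highest steers without casein were both controls, while 4 of the 6 casein + GLP-2 steers were above every casein steer. Over both infusions the difference in CPT1A was 0.38 ± 0.170 (log2, adjusted p = 0.114). CPT2 showed a wider spread, with 47.0, 50.8, 116, 201 and 240 CPM in the control steers and 106, 132, 151, 241 and 266 CPM in the GLP-2 steers. It ran from 50.6 through 124 to 168 CPM in the casein steers and from 97.8 through 161 to 310 CPM in the casein + GLP-2 steers. The treatments overlapped, and the difference in CPT2 was 0.62 ± 0.289 (log2, adjusted p = 0.133).

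The mitochondrial enzymes also had higher means with GLP-2 and did not pass the test. HADHA was at 150, 167, 213, 388 and 429 CPM in the control steers and at 249, 297, 302, 466 and 565 CPM in the GLP-2 steers, and its medians were 258 CPM in the casein and 299 CPM in the casein + GLP-2 steers. Of the 11 steers given GLP-2, 10 were above the BSA median of HADHA, although the ranges overlapped, and the difference was 0.52 ± 0.230 (log2, adjusted p = 0.116). ACADVL was at 165, 248, 275, 471 and 756 CPM in the control steers and at 308, 322, 367, 541 and 628 CPM in the GLP-2 steers, with medians of 349 CPM in the casein and 403 CPM in the casein + GLP-2 steers. A control steer, that of block 2, held the highest ACADVL level of all 22, and the difference between GLP-2 and BSA was 0.35 ± 0.243 (log2, adjusted p = 0.299).

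PDK4 did not pass the test and was spread differently from the rest. It was at 12.3, 12.8, 22.5, 25.0 and 36.1 CPM in the control steers and at 19.6, 21.6, 37.4, 46.7 and 59.6 CPM in the GLP-2 steers. It ran from 21.4 through 34.0 to 61.6 CPM in the casein steers and from 15.0 through 31.2 to 64.7 CPM in the casein + GLP-2 steers. The lowest steers of PDK4 were controls, and the other 3 treatments lay in about the same range. The difference between GLP-2 and BSA was 0.27 ± 0.267 (log2, adjusted p = 0.488).

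Of the 7 genes, all had a positive difference, 1 passed the threshold and 1 showed a tendency, and 5 had an unadjusted p under 0.05, which 34.6% of all genes had. Their median log2 difference was 0.52, against 0.01 over all genes tested.

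Split by infusion, the GLP-2 difference of PPARGC1A was 1.07 ± 0.273 without casein (fold of 2.10) and 0.82 ± 0.249 with casein (fold of 1.77) on the log2 scale. In the model of 4 treatments, with 15086 genes, edgeR called 0 genes (0%) in either of these contrasts, so that 0 of the 7 genes passed. Their adjusted p for PPARGC1A was 0.147 and 0.118. At an unadjusted p under 0.05, PPARGC1A and PPARA stood out without casein, where 13.9% of genes did, and PPARGC1A and CPT1A with casein, where 24.1% of genes did. DESeq2's Wald test on the same counts called PPARGC1A in both, with adjusted p = 0.0234 without casein, where it called 1.92% of genes, and adjusted p = 0.0353 with casein, where it called 5.91%. The difference between the infusions in the response of PPARGC1A was -0.25 (log2, 95% confidence interval -1.01 to 0.51).

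The second question was whether postruminal casein infusion changed these genes. PPARGC1A averaged 11.4 ± 4.95 CPM in the 10 steers given water and 11.4 ± 4.83 CPM in the 12 given casein, a difference of 0.00 on the log2 scale with a 95% confidence interval of -0.53 to 0.54. PPARA differed by 0.08 (-0.62 to 0.79) and CPT1A by 0.13 (-0.24 to 0.50). CPT2 differed by -0.06 (-0.70 to 0.58), HADHA by -0.10 (-0.61 to 0.41) and ACADVL by -0.15 (-0.66 to 0.36). PDK4 differed most among the 7, by 0.32 (-0.23 to 0.87). By edgeR, 0 of the 7 genes and 0 of 14096 genes (0%) passed the threshold, with 0 and 474 at an unadjusted p under 0.05, and DESeq2 called 5 genes and 0 of the 7.

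PDK4 had the largest value of the 7 for the casein by GLP-2 interaction, which did not pass the test. Against the control steers, the PDK4 difference was 0.76 ± 0.392 (log2) with GLP-2 alone and 0.77 ± 0.379 with casein alone. With casein already given, GLP-2 moved PDK4 by -0.06 ± 0.356. The interaction was -0.83 (95% confidence interval -1.92 to 0.27, unadjusted p = 0.133, adjusted p = 0.996). The first pair of contrasts shares the control steers. For the interaction, casein against control and casein + GLP-2 against GLP-2, edgeR called 0 of 15086 genes (0%) each, so none of the 7 among them, while unadjusted p under 0.05 was found for 645, 854 and 398 genes and DESeq2 called 2, 10 and 5 genes, with none of the 7 among them either.

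**Figure D2:**
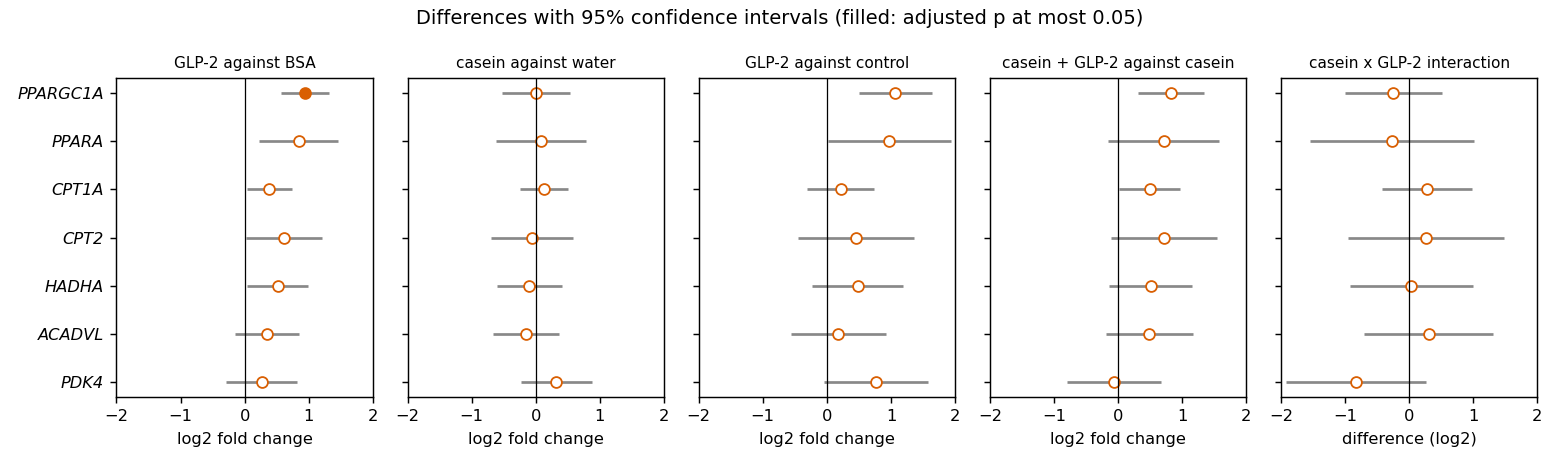
Difference of each gene on the log2 scale (points, with 95% confidence intervals) for GLP-2 against BSA, casein against water, GLP-2 without and with casein, and the interaction, with filled points where the adjusted p was 0.05 or less. PPARGC1A with GLP-2, at 0.94, is the filled point, and its intervals for GLP-2 without and with casein, 0.50 to 1.64 and 0.31 to 1.34, stay above 0.

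The 7 genes were set beside 117 genes of 9 pathway lists that include them, of which 113 were in the table and 107 passed the filter. With GLP-2 against BSA, 11 of the 107 rose and 4 fell past the threshold, which together is 14% against 13.5% of all genes. By direction, 10.3% of the 107 were called higher against 5.13% of all genes, and 3.74% lower against 8.37%. With the body weight block in the edgeR model, 4 of the 107 and 689 of the 13928 genes passed, 4 and 351 of them higher. The 4 were PPARGC1A, LPIN1, ACBD5 and PDP2, each with an adjusted p = 0.0482. The other 11 genes, named with their values in the following, then had adjusted p between 0.0513 and 0.0692, with the same direction. Over the 107 genes the median log2 difference was 0.45. Of them, 86 had a positive difference, compared with 7061 of the 13928 genes.

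Among 21 coactivators and nuclear receptors, 3 rose and 2 fell. Besides PPARGC1A, LPIN1 rose by 1.03 ± 0.316 on the log2 scale (adjusted p = 0.0368). LPIN1 encodes lipin-1, a phosphatidate phosphatase that also acts in the nucleus as a coactivator with PGC-1alpha and PPARalpha. NRIP1, a corepressor of nuclear receptors that opposes oxidative genes, rose by 0.88 ± 0.274 (adjusted p = 0.0384). The lower pair was KAT2A, the acetyltransferase GCN5, which inhibits PGC-1alpha, at -0.63 ± 0.204 (adjusted p = 0.0436), and PPRC1, the PGC-1-related coactivator, at -0.55 ± 0.181 (adjusted p = 0.0452). PPARGC1B was at 0.74 ± 0.326 (adjusted p = 0.114) and ESRRA, the estrogen-related receptor through which PGC-1alpha raises mitochondrial genes, at 0.29 ± 0.155 (adjusted p = 0.181). TFAM, GABPA and NRF1, which drive mitochondrial gene expression, were at 0.12, 0.09 and -0.09 on the log2 scale (adjusted p = 0.566, 0.689 and 0.772).

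Of 12 genes of fatty acid uptake and activation, 1 rose and none fell. It was ACBD5, a peroxisomal membrane protein that binds long-chain acyl-CoA, at 1.26 ± 0.350 (log2, adjusted p = 0.0270), and the median of the list was 0.78. In the carnitine shuttle, 0 of 8 genes passed with edgeR and 7 had an unadjusted p under 0.05, 6 of them higher. SLC22A5, the carnitine transporter of the cell surface, was at 0.91 ± 0.319 with an adjusted p = 0.0565, the smallest of the list.

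Of 16 genes listed under mitochondrial beta-oxidation, 1 rose and 1 fell, and the place of their products in the cell was not examined. ACAD11, a dehydrogenase of long-chain acyl-CoA, rose by 0.83 ± 0.272 (log2, adjusted p = 0.0455), whereas ACAD9, better known as an assembly factor of respiratory complex I, fell by 0.68 on that scale (SE 0.223, adjusted p = 0.0458). Their median was 0.32. Peroxisomal beta-oxidation had 2 genes higher and none lower of 15, with 7 more in the range of a tendency and a median of 0.73. ABCD4, which belongs to the peroxisomal half-transporter family and is itself needed for lysosomal cobalamin export, rose by 0.80 ± 0.247 (adjusted p = 0.0371). ACOX2, the oxidase of branched chains and bile acid intermediates, rose by 0.79 ± 0.262 (adjusted p = 0.0469).

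Of 6 ketone body genes, 1 rose, OXCT1, which lets a tissue use ketone bodies, by 0.49 ± 0.152 (log2, adjusted p = 0.0375). Of 3 genes that set the level of malonyl-CoA, the inhibitor of CPT1, 1 fell. It was ACACB, the acetyl-CoA carboxylase of the mitochondrial surface, which fell by 1.39 on the log2 scale (SE 0.343, adjusted p = 0.0226), from 34.0 ± 26.1 CPM with BSA to 13.2 ± 5.11 CPM with GLP-2.

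Of 12 genes that set pyruvate dehydrogenase activity, 3 rose and none fell, with 1 more higher and 1 lower in the range of a tendency. The lower one was PDHX, at -0.37 ± 0.126 (log2, adjusted p = 0.0518). In all, 8 of the 12 had a positive and 4 a negative difference. PDP2 rose by 0.96 ± 0.250 (log2, adjusted p = 0.0240) and PDP1 by 0.47 ± 0.143 (adjusted p = 0.0367). They encode the phosphatases that reverse the action of PDK4. PDHA1, the E1 alpha subunit of the complex, rose by 0.45 ± 0.148 (adjusted p = 0.0472). PDK1, PDK2 and PDK3 had adjusted p between 0.469 and 0.692. Of 14 further targets of PPARs and PGC-1alpha, 0 passed with edgeR and 4 had an unadjusted p under 0.05, 2 in each direction. PCK2, the mitochondrial phosphoenolpyruvate carboxykinase, had the smallest p of that list, at 0.84 ± 0.292 (adjusted p = 0.0553).

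With casein against water, 0 of the 107 genes passed with edgeR and 4 had an unadjusted p under 0.05.

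**Figure D3:**
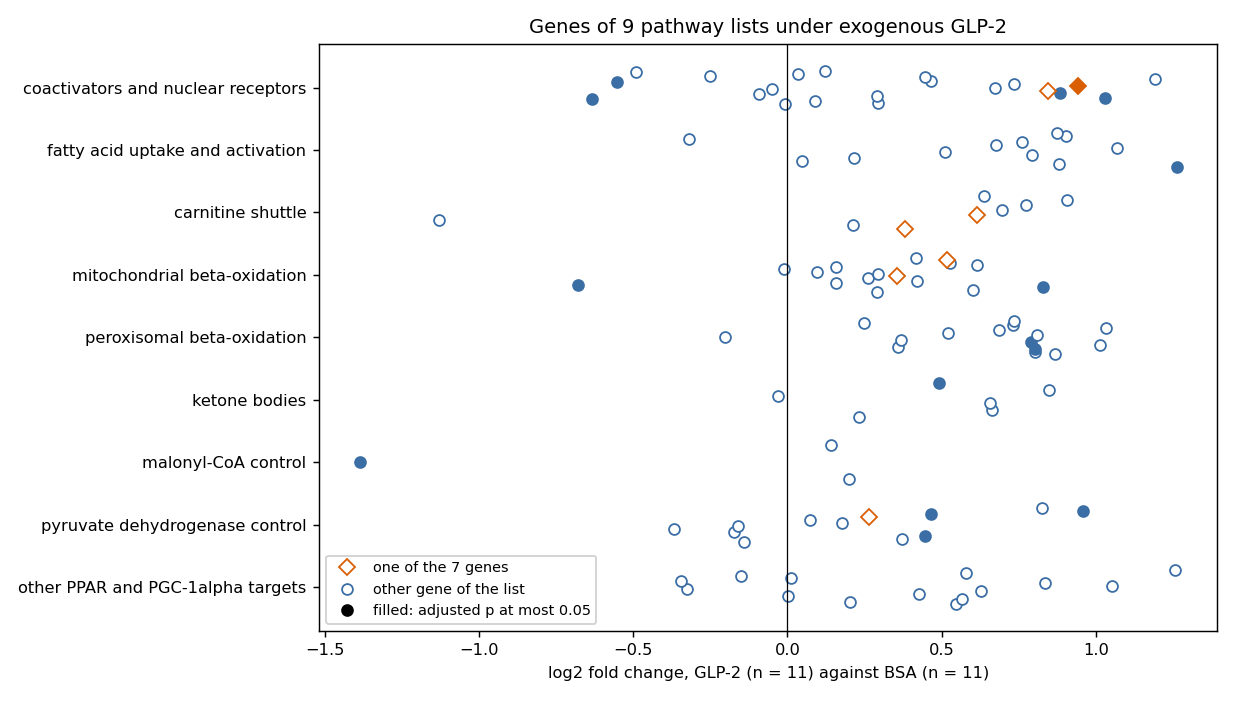
Log2 fold change of each tested gene of the 9 lists for GLP-2 against BSA, with diamonds for the 7 genes and marks filled where the adjusted p was 0.05 or less. Of 107 genes, 86 lie to the right of 0, and 15 are filled, 11 on the right and 4 on the left.

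Markers of other cells and of villus enterocytes moved with the injections. A villus enterocyte score was the mean log2 CPM of 23 brush border and lipoprotein genes that share no gene with the pathway lists. It ran from 6.12 to 10.1 in the BSA steers and from 8.66 to 10.5 in the GLP-2 steers. Of its 23 genes, 6 passed the test, all higher with GLP-2 (26.1%, against 5.13% of all genes called higher). A B cell follicle score of 14 genes ran from 0.82 to 6.63 in the BSA steers and from 0.19 to 2.27 in the GLP-2 steers. All 12 tested genes were lower with GLP-2, and 11 of them passed the threshold (91.7%, against 8.37% of all genes called lower). Scores above 5 were seen in 4 BSA steers, control blocks 1, 3 and 5 and casein block 3, and the next steer was at 3.42. Smooth muscle scores overlapped, at 1.93 to 6.77 with BSA and 1.78 to 5.90 with GLP-2, where 0 of 10 genes passed with edgeR, 4 of them lower at an unadjusted p under 0.05. Of the genes of epithelium in general, 3 of 9 were higher, while 2 of 10 proliferation genes, 1 of 10 T cell genes and 0 of 8 stroma genes (also 0 at an unadjusted p under 0.05) were lower past the threshold with edgeR. Of 6 adipocyte markers, LEP had no count in any steer and 3 averaged under 1 CPM.

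Across all 22 steers, 5 of the 7 genes followed the villus enterocyte score closely, with Pearson's r of 0.811 for PPARA, 0.855 for CPT1A, 0.940 for CPT2, 0.847 for HADHA and 0.894 for ACADVL. Their Spearman's rho lay between 0.860 and 0.919, and the largest adjusted p of the 5 for r was 2.80e-05 by permutation with 100000 resamples over 7 relations. The points share libraries and both injections, and how many of all genes follow the score was not computed. The relations were also present within the BSA steers (r of 0.696 to 0.956, n = 11, largest adjusted p = 0.0261, permutation test) and within the GLP-2 steers (r of 0.763 to 0.903, n = 11, largest adjusted p = 0.00875, permutation test). Without the pair of steers farthest from the median score, r over the 5 genes was 0.875 to 0.929 in all steers.

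For PPARGC1A the values were lower, and the difference between the correlations was not tested. Its r was 0.544 and its rho 0.558 in all steers (adjusted p = 0.0109 and 0.00936, permutation test). Within the BSA steers, r was 0.03 and rho 0.09 (adjusted p = 0.928 and 0.796, permutation test). Within the GLP-2 steers, r was 0.574 and rho 0.336 (adjusted p = 0.0670 and 0.314, permutation test). Without the 2 steers farthest from the median score, r was 0.406 and 0.634 in these groups of 9. In the control steer of block 2 the genes parted. Its villus enterocyte score was 10.1, and it held the highest PPARA, CPT1A, CPT2, HADHA and ACADVL of the control steers, but its PPARGC1A, at 6.88 CPM, was below the control median of 7.92 CPM.

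PDK4 had r = 0.207 and rho = -0.02 with the score over all steers (adjusted p = 0.358 and 0.923, permutation test). Within the GLP-2 steers it went the other way, with r = -0.628 and rho = -0.582 (adjusted p = 0.0483 and 0.0761, permutation test), and r = -0.731 without the 2 steers farthest from the median. Within the BSA steers, r was 0.494 and rho 0.345 (adjusted p = 0.143 and 0.350, permutation test). The difference between the injections in this relation was not tested.

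**Figure D4:**
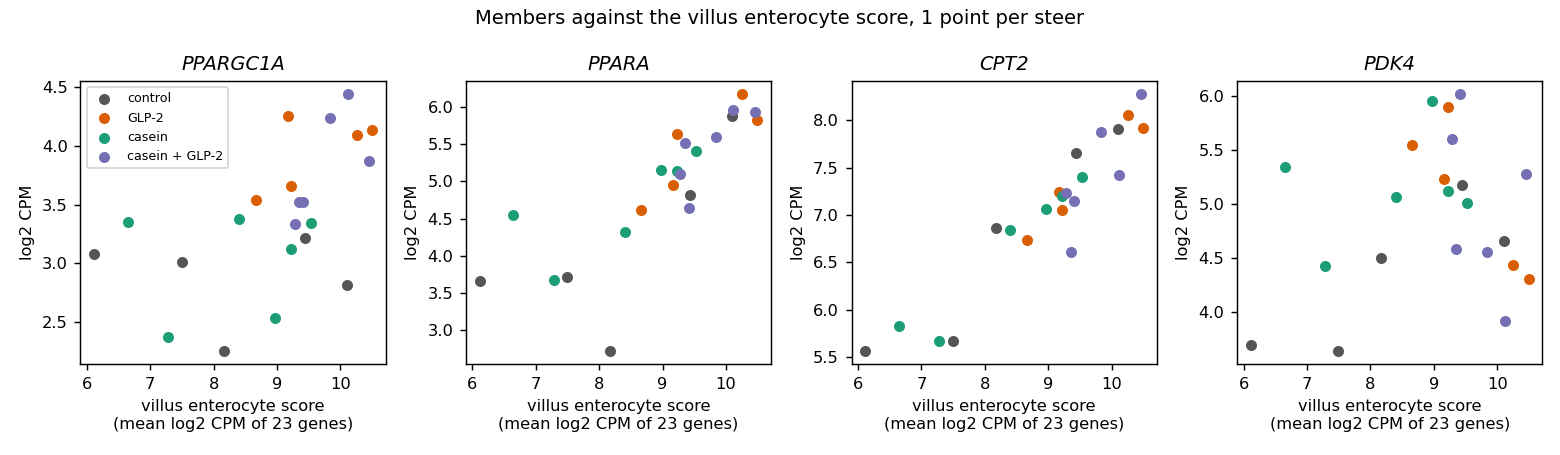
Log2 CPM of PPARGC1A, PPARA, CPT2 and PDK4 against the villus enterocyte score (mean log2 CPM of 23 genes), 1 point per steer and coloured by treatment. CPT2 follows the score in all steers (r = 0.940), while in PPARGC1A 10 of the 11 steers given GLP-2 lie above every BSA steer. The share of all genes that separate the injections in this way was not computed. With the score as a covariate, edgeR's quasi-likelihood F-test gave a PPARGC1A difference of 0.84 ± 0.229 (log2, GLP-2 against BSA, adjusted p = 0.991). That of CPT2 was -0.17 ± 0.153 (adjusted p = 0.991, same test).

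The GLP-2 difference was fitted again with either score as a covariate and without the 4 steers high in follicle genes, the latter chosen after seeing the data. PPARGC1A was at 0.94 without a covariate and at 0.84 ± 0.229 on the log2 scale with the villus enterocyte score, at 0.70 ± 0.231 with the B cell follicle score and at 0.79 ± 0.189 without the 4 steers. Its unadjusted p was 0.00122, 0.00569 and 0.000474, and its adjusted p was 0.991, 0.999 and 0.320, so the call over all genes was lost in each. In each of these models edgeR called 0 genes (0%), with 548 and 394 of 13928 genes and 1927 of 14285 genes at an unadjusted p under 0.05. In the same models the differences of the other genes were smaller. PPARA went from 0.85 to 0.20, 0.05 and 0.42, and CPT2 from 0.62 to -0.17, -0.03 and 0.27. HADHA went from 0.52 to -0.06, -0.03 and 0.23, and ACADVL from 0.35 to -0.28, -0.18 and 0.06. CPT1A went from 0.38 to -0.02, 0.03 and 0.15, and PDK4 from 0.27 to 0.20, 0.00 and -0.06. The scores differ between the injections, so their share in the GLP-2 differences and that of the hormone cannot be told apart here.

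**Figure D5:**
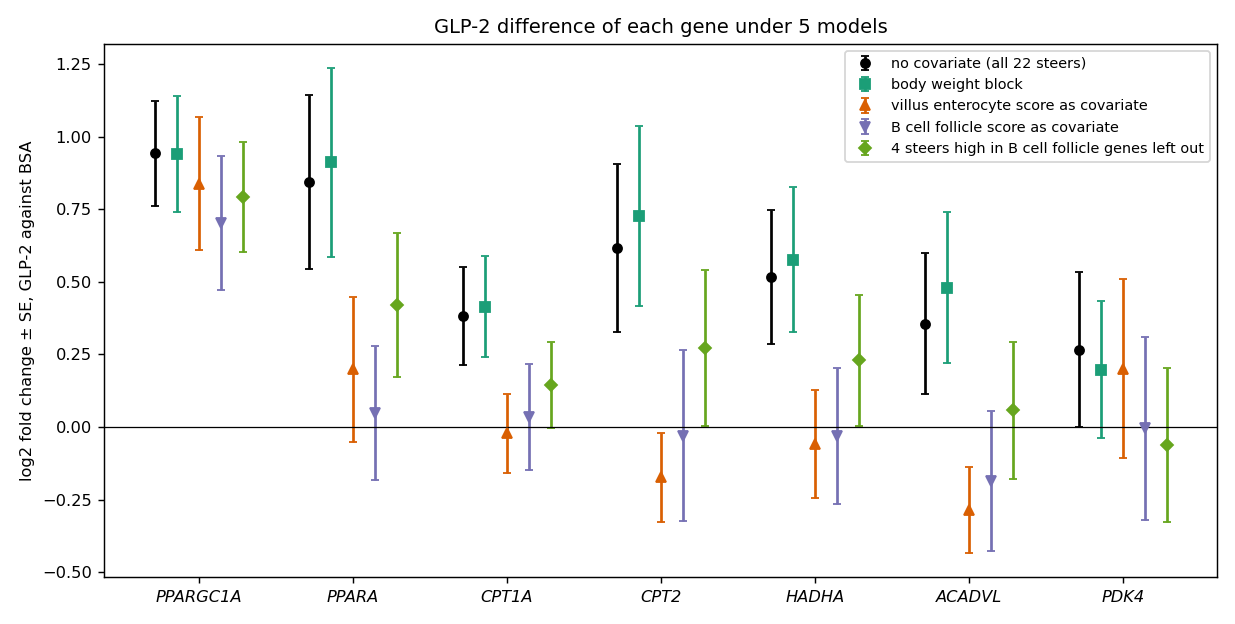
Log2 fold change with its SE for each gene, GLP-2 against BSA, under 5 models. PPARGC1A stays between 0.70 and 0.94 in all 5. By edgeR's quasi-likelihood F-test it did not pass with the villus enterocyte or B cell follicle score (adjusted p = 0.991 and 0.999). It also did not pass without the steers high in follicle genes (adjusted p = 0.320). CPT2, HADHA and ACADVL are at or below 0 with either score as a covariate. The scores differ between the injections, so their share and that of the hormone cannot be told apart.

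Single steers moved the number of calls in both directions. It fell to 634 genes without the casein + GLP-2 steer of block 3, and for pathway genes to 3 without that of block 1. Without the control steer of block 2, GLP-2 against BSA called 3516 genes (25%), among them 5 of the 7, namely PPARGC1A at 0.93 (log2, adjusted p = 0.00585), PPARA at 1.04 (adjusted p = 0.0146), CPT1A at 0.46 (adjusted p = 0.0479), CPT2 at 0.77 (adjusted p = 0.0494) and HADHA at 0.62 (adjusted p = 0.0496). PPARGC1A passed in all 22 fits that each left out 1 steer, with values between 0.86 and 0.99 and adjusted p up to 0.0425. With the body weight block in the model it was at 0.94 ± 0.200 (adjusted p = 0.0482), where the number of genes called dropped from 1881 to 689.

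The last question was whether PPARGC1A varied from steer to steer with the genes it acts on. Over all 22 steers, log2 CPM of PPARGC1A had r = 0.670 and rho = 0.587 with PPARA (adjusted p = 0.00511 and 0.0178 by permutation with 100000 resamples, over 7 relations) and r = 0.611 and rho = 0.587 with HADHA (adjusted p = 0.00777 and 0.0178). CPT2, ACADVL and CPT1A had r of 0.502, 0.465 and 0.451 (adjusted p = 0.0304, 0.0410 and 0.0417) and rho of 0.492, 0.468 and 0.420 (adjusted p = 0.0376, 0.0416 and 0.0634). PDK4 had r = -0.03 and rho = 0.06 (adjusted p = 0.888 and 0.787). These points mix both injections, which separate PPARGC1A. Within the 11 GLP-2 steers, PPARA, CPT2, HADHA and ACADVL had r between 0.537 and 0.564, CPT1A had 0.210 and PDK4 had -0.719, and by permutation 0 of 7 relations passed, with adjusted p of 0.104 or more. Within the 11 BSA steers r lay between 0.08 and 0.420, with adjusted p of 0.806 or more by permutation, and without the 2 steers farthest from the PPARGC1A median it was between -0.261 and 0.04 (n = 9). The relations thus did not pass within either injection. Without the 2 steers farthest from the PPARGC1A median, PDK4 in the GLP-2 steers had r = -0.587 (n = 9).

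After the treatment means were subtracted, the genes with a pattern most like that of PPARGC1A over the 22 steers were SEC22A (r = 0.694), SLC9A8 (r = 0.694), CARD10 (r = 0.688) and MICALL2 (r = 0.666), out of 12462 genes with a symbol whose median r was -0.04. HADHA ranked 202 (r = 0.473) and PPARA 356 (r = 0.437). ACADVL ranked 1084, CPT2 1904 and CPT1A 3316, and PDK4, at r = -0.398, ranked 11341. The ranking is a description of these libraries, with no test.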

How the data were processed

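Poly(A) mRNA of the jejunal mucosa was sequenced by the authors, who aligned reads to ARS-UCD1.2 with HISAT2 2.0.5 and deposited raw counts per gene from featureCounts 1.5.0-p3. The authors also deposited FPKM per gene, used for levels between genes and as an alternative. The sizes behind the FPKM were 0.730 to 1.25 times the count totals. Here, R 4.3.3 with edgeR 4.0.16 filtered genes (filterByExpr, minimum count 10), normalized counts by TMM and ran quasi-likelihood tests with Benjamini-Hochberg adjustment (threshold 0.05, tendency to 0.1), on pooled groups for the main effect of either factor, and in a model of 4 treatments otherwise. Log2 CPM used a prior count of 2. limma 3.58.1 and DESeq2 1.42.0 gave alternatives. Scripts were tested on simulated data.

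Named genes are the 7, of each list the non-members that passed for GLP-2 (at most 3 higher and 3 lower by smallest p) or else the smallest p, and the genes most like PPARGC1A (the leading 5 by rule). Some results under this rule are not reported here. Further family and list genes were named after their values were seen. The members and lists were chosen with earlier results of these data known. The symbols ETFB, COX5B, SOD2 and HILPDA were not matched, and G6PC1 was matched as G6PC by a RefSeq synonym. The numbers of the 6 blocks come from the labels. Per the study's methods, blocks were formed by body weight because stalls and infusion equipment were limited. Deviations of same-block steers correlated at a mean of 0.03 over 30 pairs (-0.464 to 0.387), and those of other pairs at -0.01. No pair of libraries was identical. Counting intervals were not used, since the spread between steers is larger than counting error.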

Additional observations from a re-analysis of the deposited data

How the results depend on the processing

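For GLP-2 against BSA, the count of the 13928 genes, of the 7 genes and of the 107 pathway genes past the threshold was 1881 (13.5%), 1 and 15 (14%). Of the same 13928, 7 and 107 genes, it was 689, 1 and 4 with the replicate block and 2999, 2 and 34 with DESeq2. It was 3633 (26.1%), 2 and 41 at an adjusted p of 0.1. It was 2 and 26 for the 7 and the 107 pathway genes with limma on log2(FPKM + 1), and 2 and 24 on log2(FPKM + 0.1). It was 8 of 111 pathway genes without the filter, and the counts over all genes for these settings are not reported here. The count was 0, 0 and 0 with the villus enterocyte score, the B cell follicle score, the villus enterocyte score and the block together, or the 4 follicle-rich steers left out. The last pair was chosen after seeing the data. Leaving out 1 steer gave 634 genes (without casein + GLP-2 block 3) to 3516 (without control block 2), 1 to 5 of the 7 and 3 (without casein + GLP-2 block 1) to 48 pathway genes. DESeq2 called 5 genes for casein against water, 289, 1 and 1 in the contrast of GLP-2 with control, 891, 1 and 7 in that of casein + GLP-2 with casein, 10 for casein against control, 5 for casein + GLP-2 against GLP-2 and 2 for the interaction. An adjusted p of 0.1 gave 1 gene for casein + GLP-2 against casein, and a fit of the 2 treatments alone gave 1 for casein + GLP-2 against GLP-2. Leaving out 1 steer gave 0 to 429 genes, 0 to 1 of the 7 and 0 to 1 pathway genes in the contrast of GLP-2 with control, and 0 to 1 genes where casein + GLP-2 was set against casein or against GLP-2. The block changed no other call of the 7. With deviations from the treatment means, r with PPARGC1A was 0.437 for PPARA, 0.165 for CPT1A, 0.266 for CPT2, 0.473 for HADHA and 0.338 for ACADVL, and 0 passed by permutation (adjusted p of 0.146 or more). The causes were not tested. The spread between steers, with 5 or 6 a treatment, limits the split contrasts.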
